A study of Oryza sativa Japonica Group with 12 samples.

Results

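The genes described here are those of the rice cell cycle and DNA replication machinery, 46 genes of the 17905 that have a probe set on the array naming a single gene. They were taken by name alone: a gene belongs if its symbol or a synonym, without the leading Os, starts with CYCA, CYCB, CYCD, CDKA to CDKG, CKS, KRP, E2F, MCM or ORC, or is PCNA. The rule found 55 genes in the gene table, and 46 of them have a probe set that names no other gene. The other 9 are CYCA3-1, CYCB1-5, CYCD2-1, KRP2, KRP3, CDKB1-1, CDKC-2, CDKF-2 and ORC6, which were not analysed here, and no gene named E2F was found. Where a gene has several probe sets, the brightest over the 12 arrays stands for it. No filter on low signal was applied, and 42 of the 46 genes have a mean signal above the 40th percentile of all probe sets. The dimmer 4 are CYCB1-3, MCM8, ORC3 and ORC5.

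Signals came from an Affymetrix rice array, on which a group of short probes (a probe set) stands for a transcript, hybridised with total RNA of whole leaves of Oryza sativa, Japonica group. The 4 groups held 3 arrays each: leaf 3 (L3, old) and leaf 6 (L6, young) of wild-type plants (WT), and the same leaves of plants over-expressing the microRNA miR156 (OE), all 45 days old and grown in hydroponic culture. Replicates 1, 2 and 3 of OE are the lines Md15, Md43 and Mh9, and those of WT are 3 plants, so an OE replicate cannot be told apart from a line. The OE plants had been selected on hygromycin and no transgenic plant without the miR156 construct was sampled, so effects of miR156 and of transformation or selection cannot be told apart. The promoter of the construct is not given in the sources used here. Leaf numbers on the main tiller follow the order of emergence, so leaf age and leaf position cannot be told apart either. MiR156 silences SPL transcription factor genes and marks the juvenile phase of plants, and the series asked which transcripts change with it in old and young leaves.

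A plant cell enters the cycle when D-type cyclins activate the kinase CDKA, which phosphorylates the retinoblastoma-related protein and frees E2F factors to switch on replication genes. The origin recognition complex (ORC) then marks the origins, the MCM helicase is loaded there and opens the DNA, and PCNA clamps the polymerase to the template. A-type and B-type cyclins with CDKA and the plant-specific CDKB kinases carry the cell through S phase into mitosis, while KRP proteins inhibit the cyclin kinases. In a grass leaf, division is confined to the base of the growing blade and ceases as the leaf matures. A leaf with fewer dividing cells and a leaf with less of these transcripts in each cell cannot be told apart in whole-leaf RNA.

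Some arrays stood apart before any gene was tested. Each array was placed on a score that runs from the mean of L3 to the mean of L6 of the other genotype. The probe sets of these genes were left out of the score. On it, WT_L3 replicate 1 lay at 0.3798 and replicates 2 and 3 at -0.272 and -0.252. OE_L3 replicates 1 and 2 lay at 0.252 and 0.206 and replicate 3 at -0.216, while all 6 L6 arrays lay between 0.877 and 1.10. OE_L6 replicate 1 differed in the control probe sets: its 18S rRNA signal was 117 against 495 to 1024 on the other arrays, and its 3′ to 5′ ratio of the DapX control was 5.35 on the log2 scale against 3.20 to 3.70. Median signals of the arrays spanned only 50.8 to 56.5. The leaf marker genes were present: the Rubisco small subunit gene RBCS read between 8550 and 13099 and the light-harvesting gene CAB2R between 4568 and 9106 on all 12 arrays, while a second small subunit gene, RBCS1, read only 7.03 to 11.7.

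More of these genes were higher than lower in young L6 leaves relative to old L3 leaves, in both genotypes. Of the 46 genes, 21 rose and 5 fell from L3 to L6 in WT, and 20 did not pass the test (limma on log2(signal + 16), Benjamini-Hochberg adjusted p under 0.05 over 57194 probe sets). In all probe sets, 15.6% rose and 16% fell, 31.6% in either direction. Read in the same way as the 46, with 1 probe set per gene, 22.4% of all 17905 genes rose and 26.8% fell. The median log2 difference of the 46 genes was 0.82, against -0.02 over all 17905 genes. In OE, 9 genes rose, 5 fell and 32 did not pass, against 11.9% and 15.6% of all probe sets, or 27.5% in either direction, and against 17.2% and 25.4% of all genes. The share of the 46 that rose was 45.7% in WT, and in OE it was 19.6%, near that of all genes. The median log2 difference in OE was 0.78, again against -0.02 over all 17905 genes.

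Each replicate carries its L3 and L6 from the same plant or line, and the 2 ways of fitting the plant moved the counts of rises in opposite directions. With the plant as a fixed block, called the replicate block from here on, 27 genes rose and 4 fell in WT, and 22 rose and 2 fell in OE. With the plant as a random block, 16 rose and 5 fell in WT, and 7 rose and 5 fell in OE. The shares of all probe sets called under these 2 fits are not given here. The random block lost the calls of MCM3, CYCB1-1, CYCB2-2, CYCD2-2 and CKS1 in WT and of CYCB1-3 and CYCD6-1 in OE, and gained 0.

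The counts depended on single arrays, so each called gene is given with its signal on every array, in the order of replicates 1, 2 and 3. Without WT_L3 replicate 1, 30 genes rose in WT and 29 in OE, since the 4 groups share one estimate of the spread. Calls over all probe sets moved too, from 18071 to 20969 in WT and from 15706 to 18266 in OE. Without WT_L3 replicate 2 or 3, 3 rose in WT, and without WT_L6 replicate 1 or 2, 5 or 4. Over all probe sets, calls in WT numbered 10521 without WT_L3 replicate 3. Falls in WT numbered 2 without WT_L3 replicate 2 or 3, and 3 without WT_L6 replicate 2 or 3. In OE, 3 rose without OE_L3 replicate 3 or OE_L6 replicate 2, and 4 without OE_L6 replicate 1. Over all probe sets, calls in OE numbered 8982 without OE_L3 replicate 3. These totals count both directions, and for the other arrays left out only their range is given, further below. The shares of all probe sets that rose in these fits are not given here. Falls in OE numbered 1 without OE_L6 replicate 2, 2 without OE_L3 replicate 3, and 3 without OE_L3 replicate 1 or 2 or OE_L6 replicate 1. The medians were steadier, between 0.65 and 1.11 in WT and between 0.56 and 0.90 in OE on the log2 scale when each array was left out in turn.

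**Figure D1:**
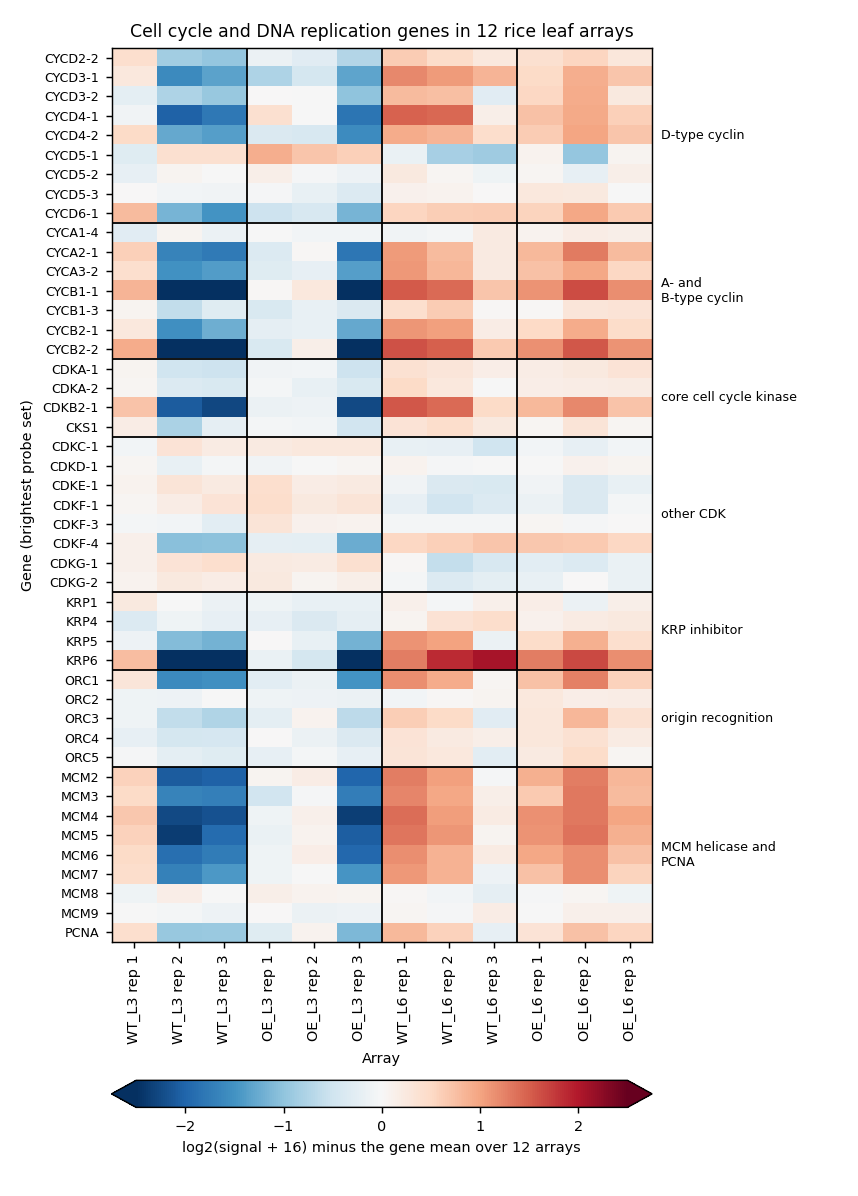
Log2(signal + 16) of the 46 genes minus each gene's mean over the 12 arrays, with arrays in columns by group and replicate and genes in rows by role. WT_L3 replicates 2 and 3 and OE_L3 replicate 3 are the lowest columns for most cyclins and MCM genes and for KRP5 and KRP6. WT_L3 replicate 1 and OE_L3 replicates 1 and 2 mostly lie between them and L6 for these genes. Of the 8 other cyclin-dependent kinases, 5 run the other way.

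D-type cyclins, which link growth signals to entry into the cycle, were measured for 9 genes. In WT 5 rose and 0 fell, and in OE 4 rose and 1 fell. Thus 55.6% and 44.4% rose, against 22.4% and 17.2% of all genes. CYCD3-1 (LOC4340499) read 244, 56.7 and 70.1 in WT_L3, 486, 442 and 375 in WT_L6, 112, 145 and 71.04 in OE_L3 and 288, 392 and 338 in OE_L6. All 6 L6 signals were above all 6 L3 signals, by 1.93 ± 0.40 in WT and 1.54 ± 0.40 in OE on the log2 scale (SE, n = 3, adjusted p = 0.00473 and 0.0162). CYCD4-1 (LOC4347313) read 118, 18.9 and 24.8 in WT_L3, 378, 367 and 140.1 in WT_L6, 170.0, 125 and 23.8 in OE_L3 and 219, 258 and 199 in OE_L6. The difference between leaves was 2.31 ± 0.62 on the log2 scale (SE, adjusted p = 0.0164) in WT, where the groups did not overlap, and 1.24 ± 0.62 on the log2 scale (SE, adjusted p = 0.161) in OE. CYCD4-2 (LOC4345844) read 173, 39.5 and 36.2 in WT_L3, 241, 227 and 168 in WT_L6, 88.97, 87.02 and 29.4 in OE_L3 and 196, 252 and 204 in OE_L6. It rose by 1.47 in WT and 1.56 in OE on the log2 scale (adjusted p = 0.0305 and 0.0272), though WT_L3 replicate 1 exceeded the lowest WT_L6 array.

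CYCD2-2 and CYCD3-2 rose in WT. CYCD2-2 (LOC4343936) read 94.7, 29.2 and 26.1 in WT_L3, 112, 96.8 and 83.2 in WT_L6, 58.4, 51.4 and 33.7 in OE_L3 and 92.1, 103 and 84.8 in OE_L6. CYCD3-2 (LOC4346394) read 49.6, 30.01 and 24.7 in WT_L3, 118, 116 and 47.8 in WT_L6, 62.9, 61.8 and 22.9 in OE_L3 and 95.9, 133 and 76.9 in OE_L6. In WT the log2 differences were 0.92 for CYCD2-2 (adjusted p = 0.0398) and 1.07 for CYCD3-2 (adjusted p = 0.0364), with the highest L3 array above the lowest L6 array for both. In OE they were 0.79 and 0.90, with adjusted p = 0.0753 and 0.0747. With the replicate block the OE values passed as well, at adjusted p = 0.03998 and 0.0193. CYCD6-1 and CYCD5-3 rose in OE. CYCD6-1 (LOC4343569) read 372, 84.1 and 64.1 in WT_L3, 312, 328 and 332 in WT_L6, 139.9, 153 and 83.997 in OE_L3 and 312, 421 and 336 in OE_L6. Its log2 difference was 1.42 in OE (adjusted p = 0.0421, and 0.0512 with the replicate block) and 1.22 in WT (adjusted p = 0.0669), where replicate 1 of L3 exceeded all 3 L6 arrays. CYCD5-3 (LOC4331985) read 94.98, 89.2 and 87.3 in WT_L3, 103, 101 and 94.7 in WT_L6, 91.5, 81.2 and 71.5 in OE_L3 and 117, 114 and 93.1 in OE_L6. The rise of CYCD5-3 in OE was small, 0.35 ± 0.10 on the log2 scale (SE, adjusted p = 0.0248), and WT gave 0.12 ± 0.10 on the log2 scale (SE, adjusted p = 0.393).

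CYCD5-1 ran against the rest of its family. CYCD5-1 (LOC4333455) read 57.7, 105 and 104 in WT_L3, 65.7, 35.5 and 33.3 in WT_L6, 154, 131 and 122 in OE_L3 and 80.5, 30.5 and 80.2 in OE_L6. The lower level in L6 passed in OE, where the groups did not overlap (log2 difference -1.001 ± 0.30, SE, adjusted p = 0.0306), and did not pass in WT (log2 difference -0.79 ± 0.30, SE, adjusted p = 0.06803). With the replicate block the OE value did not pass either, at adjusted p = 0.0621. The leaf difference of CYCD5-2 did not pass on its brightest probe set, 0.10 ± 0.13 on the log2 scale (SE, adjusted p = 0.602) in WT and 0.00 ± 0.13 on the log2 scale (SE, adjusted p = 0.9996) in OE. Its second probe set read 103, 27.7 and 23.9 in WT_L3 and 162, 151 and 95.5 in WT_L6, a log2 difference of 1.33 with adjusted p = 0.0202, and rose in OE as well, by 1.28 (adjusted p = 0.0275), so the 2 probe sets of CYCD5-2 disagree.

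**Figure D2:**
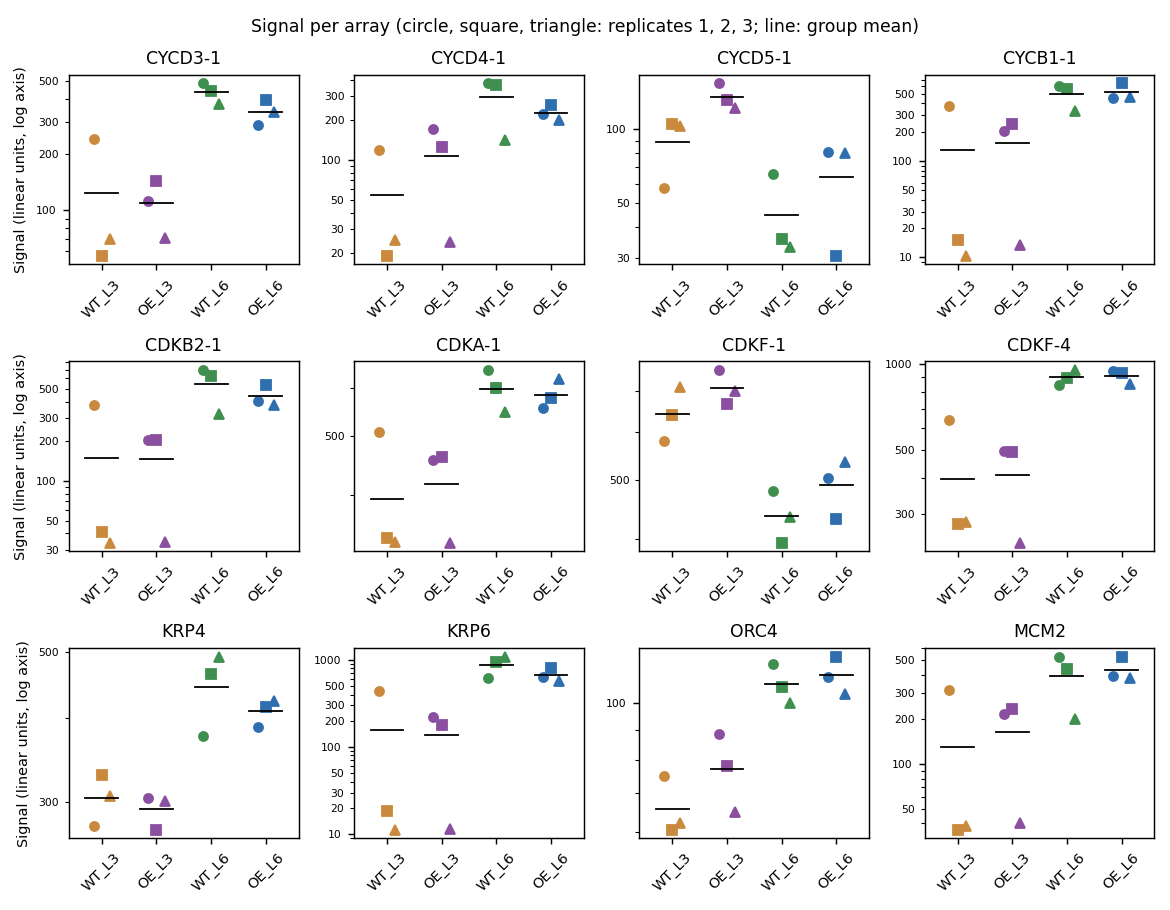
Signal of 12 of the genes on each array, on a log axis that differs between panels, with circles, squares and triangles for replicates 1, 2 and 3 and a line at the group mean (n = 3). CYCD3-1, KRP4, ORC4 and CDKF-4 are higher on every L6 array than on any L3 array, CDKF-1 is lower on every L6 array, and CYCB1-1, CDKB2-1 and MCM2 split the L3 arrays.

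The A-type and B-type cyclins, which drive S phase and mitosis, numbered 7. In WT 5 rose and 0 fell, and in OE 1 rose and 0 fell. As shares, 71.4% and 14.3% rose, against 22.4% and 17.2% of all genes. CYCB1-1 (LOC4327547) read 371, 15.3 and 10.4 in WT_L3, 608, 557 and 331 in WT_L6, 205, 242 and 13.4 in OE_L3 and 455, 647 and 469 in OE_L6. The L3 arrays thus spanned a wide range, and WT_L3 replicate 1 exceeded WT_L6 replicate 3. CYCB1-1 rose in WT (log2 difference 2.87 ± 0.99, SE, adjusted p = 0.0469) and gave 2.16 ± 0.99 on the log2 scale (SE, adjusted p = 0.127) in OE. CYCB2-2 (LOC4342121) read 305, 8.597 and 8.76 in WT_L3, 489, 459 and 247 in WT_L6, 113, 171 and 9.29 in OE_L3 and 355, 475 and 351 in OE_L6. It showed the same split of L3 arrays and rose in WT (log2 difference 2.78 ± 0.94, SE, adjusted p = 0.0433), while OE gave 2.26 ± 0.94 on the log2 scale (SE, adjusted p = 0.0961). CYCB2-1 (LOC4336670) read 182, 40.6 and 54.3 in WT_L3, 337, 319 and 171 in WT_L6, 126, 129 and 51.5 in OE_L3 and 218, 296 and 211 in OE_L6. CYCA3-2 (LOC4352642) read 141, 25.4 and 28.6 in WT_L3, 234, 192 and 122 in WT_L6, 78.9, 86.1 and 29.1 in OE_L3 and 178, 215 and 152 in OE_L6. CYCB2-1 and CYCA3-2 rose in WT by 1.60 and 1.54 on the log2 scale (adjusted p = 0.0206 and 0.03004), with WT_L3 replicate 1 above WT_L6 replicate 3 for both. In OE their log2 differences were 1.19 and 1.37, with adjusted p = 0.0723 and 0.05301, and 0.0411 and 0.0219 with the replicate block.

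CYCB1-3, a dim probe set, rose in both genotypes. CYCB1-3 (LOC4326914) read 36.8, 16.7 and 24.4 in WT_L3, 51.05, 61.4 and 35.5 in WT_L6, 22.7, 28.4 and 23.2 in OE_L3 and 35.3, 45.9 and 47.2 in OE_L6. The log2 differences were 0.65 in WT (adjusted p = 0.01904) and 0.53 in OE (adjusted p = 0.0493, and 0.0712 with the replicate block). The gene table lists both CYCB1-3 and CYCB1-1 as names of this gene, so its identity is uncertain. CYCA2-1 averaged 103 ± 117 in WT_L3 and 265 ± 79.7 in WT_L6 (SD, n = 3). It missed the threshold in WT (log2 difference 1.65 ± 0.61, SE, adjusted p = 0.0595) and in OE (log2 difference 1.67 ± 0.61, SE, adjusted p = 0.0628) and passed in both with the replicate block (adjusted p = 0.0274 and 0.0305). CYCA1-4 stayed between 213 and 308 on all 12 arrays and passed in neither genotype.

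The core kinases and their docking subunit CKS1 rose in WT, 4 of 4 genes, and 0 of 4 passed in OE. Among all genes, 22.4% rose in WT and 17.2% in OE. CDKB2-1 (LOC4346016) read 376, 40.8 and 33.98 in WT_L3, 694, 626 and 320.4 in WT_L6, 203, 204 and 34.3 in OE_L3 and 407, 537 and 377 in OE_L6. CDKB2-1, a mitotic kinase found in plants only, rose in WT (log2 difference 2.37 ± 0.76, SE, adjusted p = 0.0347), with WT_L3 replicate 1 above WT_L6 replicate 3, and gave 1.75 ± 0.76 on the log2 scale (SE, adjusted p = 0.108) in OE. CDKA-1 (LOC4331415) read 509, 340.2 and 335 in WT_L3, 642, 599.6 and 549 in WT_L6, 458, 462 and 335 in OE_L3 and 557, 578 and 621 in OE_L6. The signal of CDKA-1, the kinase used throughout the cycle, separated L3 from L6 in both genotypes. Its log2 difference was 0.60 ± 0.17 in WT (SE, n = 3, adjusted p = 0.0203) and 0.48 ± 0.17 in OE (adjusted p = 0.0546). CDKA-2 (LOC4328135) read 269.9, 203 and 198 in WT_L3, 373, 319 and 260.1 in WT_L6, 253, 228 and 197 in OE_L3 and 295, 299 and 303 in OE_L6. CKS1 (LOC4331610) read 971, 489 and 726 in WT_L3, 1085, 1160.4 and 1019 in WT_L6, 832, 809.8 and 607 in OE_L3 and 888, 1076 and 880.0 in OE_L6. In WT the log2 differences were 0.48 for CDKA-2 (adjusted p = 0.0338) and 0.62 for CKS1 (adjusted p = 0.0449, and 0.0631 with the replicate block). In OE they were 0.39 and 0.34, with adjusted p = 0.0791 and 0.2604. A pair of further probe sets of CDKA-2 gave 0.26 and 0.10 in WT and passed in neither genotype (adjusted p = 0.258 and 0.448 in WT). The probes of CDKA-1 and CDKA-2 can match other transcripts as well, by the suffix of their probe set names.

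The other cyclin-dependent kinases, 8 genes of the C to G classes, act mainly in transcription, splicing or the activation of other kinases. They ran mostly the other way: 1 rose and 5 fell in WT, and 1 rose and 4 fell in OE. Among all genes, 22.4% rose and 26.8% fell in WT, and 17.2% rose and 25.4% fell in OE. CDKF-1 (LOC4340934) read 578, 639 and 709 in WT_L3, 479.6, 394 and 435 in WT_L6, 757, 666 and 700.3 in OE_L3 and 504, 431 and 535 in OE_L6. CDKF-1, whose Arabidopsis counterpart activates other cyclin-dependent kinases, fell in WT (log2 difference -0.54 ± 0.12, SE, adjusted p = 0.00634) and in OE (log2 difference -0.52 ± 0.12, SE, adjusted p = 0.00882), with no overlap of the groups in either. CDKE-1 (LOC4349519) read 463, 551 and 516 in WT_L3, 409.9, 336 and 332 in WT_L6, 591, 501 and 514 in OE_L3 and 407, 336 and 384 in OE_L6. CDKE-1, the plant counterpart of the Mediator kinase CDK8, fell in WT (log2 difference -0.49 ± 0.12, SE, adjusted p = 0.0115) and in OE (log2 difference -0.49 ± 0.12, SE, adjusted p = 0.0127), also without overlap. CDKG-1 (LOC4329899) read 428, 500.0 and 529 in WT_L3, 401, 254 and 291 in WT_L6, 462, 454 and 519 in OE_L3 and 323, 304 and 347 in OE_L6. CDKG-1 fell by 1.53-fold in WT (adjusted p = 0.0112) and 1.45-fold in OE (adjusted p = 0.0239, and 0.06702 with the replicate block). A second, dimmer probe set of CDKG-1 ran the other way: it gave 0.19 in WT (adjusted p = 0.0839) and rose in OE by 0.28 on the log2 scale (adjusted p = 0.0256), so the fall rests on the brightest probe set.

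CDKC-1 (LOC4338674) read 131, 179 and 160.4 in WT_L3, 119.5, 117 and 92.6 in WT_L6, 162, 169 and 168 in OE_L3 and 130.3, 116 and 130.3 in OE_L6. CDKC-1, whose class phosphorylates RNA polymerase II in Arabidopsis, fell in WT (log2 difference -0.46 ± 0.12, SE, adjusted p = 0.0142) and in OE (log2 difference -0.37 ± 0.12, SE, adjusted p = 0.0411), the latter lost with the replicate block at adjusted p = 0.0896. CDKG-2 (LOC4336224) read 646, 716 and 688 in WT_L3, 584, 473 and 507 in WT_L6, 721, 634 and 671 in OE_L3 and 528, 611 and 534 in OE_L6. CDKG-2 fell in WT (log2 difference -0.38 ± 0.11, SE, adjusted p = 0.0184, and adjusted p = 0.0771 with the replicate block) and gave -0.27 ± 0.11 on the log2 scale (SE, adjusted p = 0.0801) in OE. The other probe sets of CDKE-1 and CDKG-2 were lower in L6 in both genotypes too, with adjusted p between 0.0589 and 0.682, and passed in neither. CDKF-4 was the exception in this class. CDKF-4 (LOC4330434) read 639, 276 and 280.3 in WT_L3, 847, 897 and 955 in WT_L6, 499, 493 and 238 in OE_L3 and 946, 935 and 849.9 in OE_L6. It rose in WT (log2 difference 1.25 ± 0.32, SE, adjusted p = 0.0132) and in OE (log2 difference 1.19 ± 0.32, SE, adjusted p = 0.01896), and all L6 arrays exceeded all L3 arrays. A second probe set of CDKF-4 rose in WT by 1.33 on the log2 scale (adjusted p = 0.0162). In OE it gave 0.92 (adjusted p = 0.0754), and the groups overlapped there. CDKD-1, the catalytic subunit of a kinase that activates other cyclin-dependent kinases, stayed between 353 and 435 on all 12 arrays. CDKF-3 stayed between 294 and 446.

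The KRP inhibitors, which bind and block cyclin kinases, were measured for 4 genes, of which 3 rose in WT and 1 in OE. These are 75% and 25%, against 22.4% and 17.2% of all genes. KRP6 (LOC4347280) read 435, 18.4 and 11.3 in WT_L3, 622, 948 and 1083 in WT_L6, 219, 179.5 and 11.6 in OE_L3 and 629, 815 and 576 in OE_L6. KRP6 rose in WT (log2 difference 3.55 ± 1.00, SE, adjusted p = 0.0205) and gave 2.66 ± 1.00 on the log2 scale (SE, adjusted p = 0.0701) in OE. Of the 46 genes its log2 difference in WT was the largest. KRP5 (LOC4331554) read 92.03, 39.98 and 36.2 in WT_L3, 240.4, 219.8 and 91.1 in WT_L6, 103, 87.7 and 35.99 in OE_L3 and 146, 203 and 142 in OE_L6. KRP5 rose in WT (log2 difference 1.45 ± 0.40, SE, adjusted p = 0.0187), with its highest L3 array above its lowest L6 array, and gave 1.04 ± 0.40 on the log2 scale (SE, adjusted p = 0.0747) in OE, with adjusted p = 0.0305 under the replicate block. KRP4 (LOC4348872) read 276, 329 and 306 in WT_L3, 376, 464 and 491 in WT_L6, 304, 274 and 302 in OE_L3 and 387, 415 and 423 in OE_L6. KRP4 was even within groups and rose in WT (log2 difference 0.52 ± 0.11, SE, adjusted p = 0.00673) and in OE (log2 difference 0.46 ± 0.11, SE, adjusted p = 0.0141) without overlap. A second, dimmer probe set of KRP4 gave -0.17 in WT and -0.07 in OE on the log2 scale, and a second one of KRP6 gave 0.10 and 0.06, so for both genes the leaf difference rests on the brightest probe set. KRP1 stayed between 442 and 605.

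Genes of the origin recognition complex numbered 5, of which 2 rose in WT and 2 in OE. That is 40% in each, against 22.4% and 17.2% of all genes. ORC4 (LOC4324139) read 74.8, 60.6 and 62.2 in WT_L3, 117, 107 and 100.3 in WT_L6, 88.7, 78.03 and 65.01 in OE_L3 and 111, 120.3 and 104 in OE_L6. ORC4 rose in WT (log2 difference 0.60 ± 0.11, SE, adjusted p = 0.00237) and in OE (log2 difference 0.46 ± 0.11, SE, adjusted p = 0.0107). A second probe set of ORC4 rose in both as well, by 0.40 and 0.36 on the log2 scale (adjusted p = 0.00684 and 0.0143). The probes of the brightest one can match other transcripts as well, by the suffix of its name. ORC1 (LOC4340349) read 101, 15.4 and 17.02 in WT_L3, 198, 165 and 82.6 in WT_L6, 63.2, 70.2 and 17.9 in OE_L3 and 142, 212 and 127 in OE_L6. ORC1 rose in WT (log2 difference 1.66 ± 0.52, SE, adjusted p = 0.0313), gave 1.49 ± 0.52 on the log2 scale (SE, adjusted p = 0.0529) in OE, and passed there with the replicate block (adjusted p = 0.0191). ORC2 (LOC4331860) read 122, 121 and 131 in WT_L3, 125, 135 and 139 in WT_L6, 121, 119.8 and 117 in OE_L3 and 161, 150.4 and 152 in OE_L6. ORC2 rose in OE by a small amount, 0.33 ± 0.07 on the log2 scale (SE, adjusted p = 0.00833), with no overlap, and gave 0.08 ± 0.07 on the log2 scale (SE, adjusted p = 0.473) in WT. ORC3 averaged 15.6 ± 7.89 in WT_L3 and 38.5 ± 16.6 in WT_L6 (SD, n = 3) and missed the threshold in WT at adjusted p = 0.0506. ORC5 stayed between 21.5 and 48.1. With the replicate block ORC3 passed in both genotypes (adjusted p = 0.0105 and 0.0115) and ORC5 in OE (0.0312).

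The MCM genes and PCNA numbered 9, of which 1, MCM3, rose in WT and 0 in OE. The share in WT, 11.1%, was under the 22.4% of all genes that rose, and in OE 17.2% of all genes rose. MCM3 (LOC4339099) read 226, 38.4 and 37.4 in WT_L3, 388, 325 and 176 in WT_L6, 109, 155 and 36.6 in OE_L3 and 257, 414 and 286 in OE_L6. MCM3 rose in WT (log2 difference 1.75 ± 0.58, SE, adjusted p = 0.0413) and gave 1.66 ± 0.58 on the log2 scale (SE, adjusted p = 0.0553) in OE. MCM2 (LOC4350526) read 316, 36.4 and 38.6 in WT_L3, 526, 438 and 202 in WT_L6, 217, 237 and 40.3 in OE_L3 and 394, 526 and 378 in OE_L6. The MCM2 signal in L3 thus ran from near that of L6 to far below it, and the difference did not pass in WT (log2 difference 1.94 ± 0.73, SE, adjusted p = 0.0641) or in OE (log2 difference 1.58 ± 0.73, SE, adjusted p = 0.131). All 6 subunits of the replicative helicase, MCM2 to MCM7, had log2 differences between 1.503 and 2.13 in WT and between 1.34 and 1.93 in OE. For the 5 that did not pass in WT the adjusted p ran from 0.0525 to 0.0641. Without WT_L3 replicate 1 all 6 passed in both genotypes, and with the replicate block 6 of 6 passed in WT and 5 of 6 in OE. Leaving out WT_L3 replicate 2 or 3, or WT_L6 replicate 1 or 2, lost the call of MCM3 in WT. So did leaving out OE_L3 replicate 1 or OE_L6 replicate 1 or 3. With only the compared groups in the fit, 0 of 6 passed in WT, at adjusted p from 0.0767 to 0.104. With the plant as a random block none of the 6 passed in either genotype, and MCM3 had adjusted p = 0.0523 in WT.

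PCNA averaged 505 ± 309.7 in WT_L3, 886 ± 295 in WT_L6, 495 ± 199 in OE_L3 and 943 ± 132 in OE_L6 (SD, n = 3). Its leaf difference did not pass in WT (log2 difference 0.89 ± 0.40, SE, adjusted p = 0.1204) or in OE (log2 difference 0.98 ± 0.40, SE, adjusted p = 0.0936), though it passed in OE with the replicate block (adjusted p = 0.0427). MCM8 and MCM9 are relatives of the helicase that act in recombination and repair in Arabidopsis and animals. MCM8 read 22.97 to 34.7 and MCM9 143 to 183 on the 12 arrays, and on these brightest probe sets neither passed in either genotype. A dimmer probe set of MCM9 was called lower in L6 in WT, with a log2 difference of -0.34 (adjusted p = 0.0197) and no overlap, and gave -0.21 in OE (adjusted p = 0.128). The probes of both can match other transcripts.

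**Figure D3:**
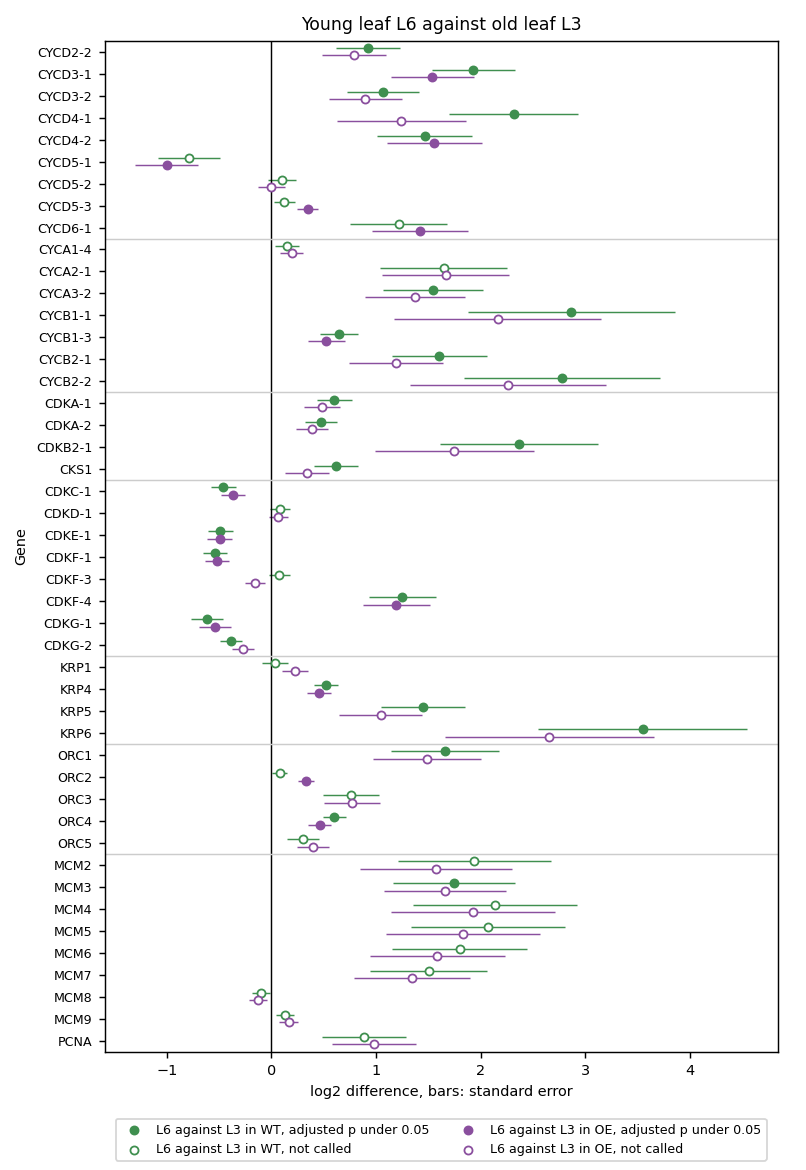
Log2 difference of L6 minus L3 for each of the 46 genes in WT and in OE, with bars of 1 SE (n = 3 arrays a group, limma) and filled symbols where the adjusted p was under 0.05. Most cyclins, inhibitors, ORC and MCM genes lie to the right of 0 in both genotypes, and CYCD5-1 and most of the other cyclin-dependent kinases lie to the left.

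The leaf comparisons in WT and OE use different arrays, and 45 of the 46 genes had the same sign in both. Called in both, in the same direction, were 10 genes, 6 that rose (CYCB1-3, CYCD3-1, CYCD4-2, KRP4, ORC4 and CDKF-4) and 4 that fell (CDKC-1, CDKE-1, CDKF-1 and CDKG-1). They are 38.5% of the 26 called in WT and 71.4% of the 14 called in OE. The same counts over all genes are not given here, so this agreement is not set against that of other genes. The separation of the arrays differed from the calls. In WT the L3 and L6 signals did not overlap for 8 genes that were higher and 5 that were lower in L6, against 21.1% and 22.4% of all probe sets, or 43.5% either way. In OE they did not overlap for 34 higher and 8 lower genes, against 22.5% and 23.5% of all probe sets, or 46.1% either way. All 9 D-type cyclins but 1, all 7 A-type and B-type cyclins, all 4 core kinases and all 5 ORC genes were separate in OE.

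The old leaves differed among themselves by more than the young ones. The median coefficient of variation of the 46 genes was 44.8% in WT_L3 and 21.3% in WT_L6. The medians in OE were 27.9% in OE_L3 and 13.9% in OE_L6. The coefficient exceeded 50% for 23 genes in WT_L3 and 13 in OE_L3 and for 0 in both L6 groups, and reached 159% for CYCB2-2 in WT_L3. The mean within-group variance on the log2 scale was 0.923 in WT_L3, 0.522 in OE_L3, 0.155 in WT_L6 and 0.0466 in OE_L6, against 0.109, 0.0767, 0.0309 and 0.0360 over all probe sets. Because 1 spread was shared by the 4 groups, the errors quoted for L6 also carry the scatter of L3.

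The order of the L3 arrays was shared by most of the genes. Set against the mean of L6 in the same genotype, the median of MCM2 to MCM7 was 80.0% in WT_L3 replicate 1, 10.1% in replicate 2 and 11.2% in replicate 3. In OE_L3 it was 42.7%, 50.1% and 9.06%. The A-type and B-type cyclins followed, with medians of 76.6%, 13.9% and 15.6% in WT_L3 and 43.4%, 49.4% and 15.99% in OE_L3. WT_L3 replicate 1 was the highest of its group for 35 of the 46 genes, against 38.6% of all probe sets, and OE_L3 replicate 3 the lowest for 35, against 33.7%. These are the same arrays that stood apart on the leaf score, and its part in the spread of the genes was not tested. Not all genes followed this order. WT_L3 replicate 1 was the lowest of its group for 10 of the 46, KRP4 among them, against 37.6% of all probe sets. ORC2 was highest in WT_L3 replicate 3.

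Among the young leaves, WT_L6 replicate 3 was the low one. It was the lowest of its group for 34 of the 46 genes, against 27.5% of all probe sets, although its leaf score was 1.07. The median of MCM2 to MCM7 there was 55.1% of the WT_L6 mean, with CYCD4-1 at 37.6% and MCM2 at 41.9% of the mean of the other replicates. KRP6 at 138%, CYCA1-4 at 123% and KRP4 at 117% were higher there than in the other replicates. WT_L6 replicate 1 was the highest for 36 genes, against 32.8% of probe sets.

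**Figure D4:**
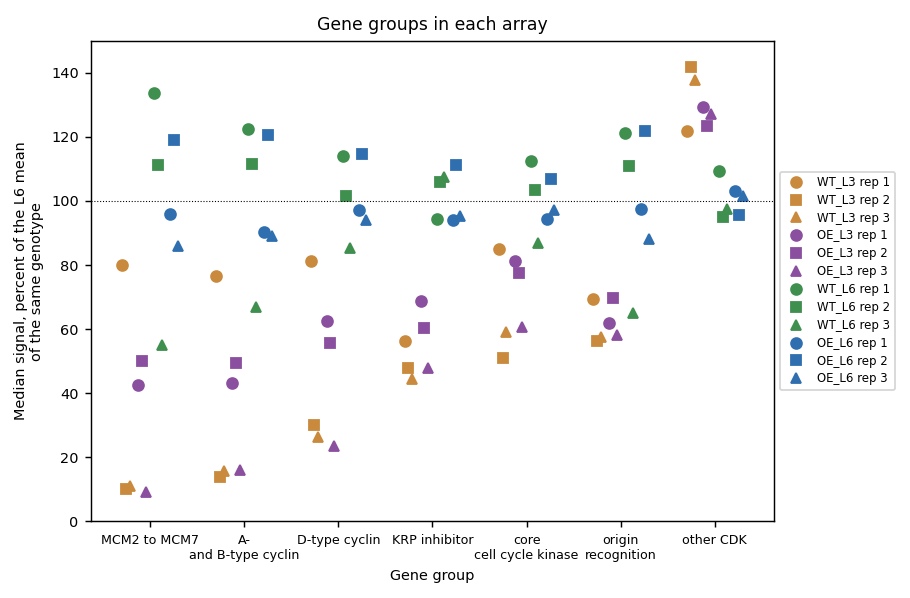
Median signal of each role on each array as a percentage of the mean of L6 in the same genotype. MCM2 to MCM7 and the A-type and B-type cyclins lie between 9.06% and 15.99% of L6 in WT_L3 replicates 2 and 3 and OE_L3 replicate 3, while the other cyclin-dependent kinases lie above 100% in all L3 arrays.

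Over-expression of miR156 gave no call among these genes. In L3, 0 of 46 rose or fell in OE against WT, against 0.108% of all probe sets called, and 1 had an unadjusted p under 0.05 in limma, against 4.32% of all probe sets. The median log2 difference was 0.09, against 0.03 over all 17905 genes, and moved to 0.44 when WT_L3 replicate 1 was left out and to -0.02 when replicate 2 was. The gene with the lowest p was CDKF-3. CDKF-3 (LOC4334774) read 343, 338 and 294 in WT_L3, 343, 345 and 341 in WT_L6, 446, 384 and 377 in OE_L3 and 369, 349 and 357 in OE_L6. All 3 OE_L3 signals exceeded the WT_L3 signals, by 0.29 ± 0.10 on the log2 scale (SE, adjusted p = 0.914). CYCD5-1 was separate as well, higher in OE_L3 by 0.57 ± 0.30 on the log2 scale (SE, adjusted p = 0.99996). On the brightest probe sets these 2 were the only genes of the 46 without overlap, against 9.16% of all probe sets. ORC4 at 0.18, KRP1 at -0.19 and CYCD5-3 at -0.13 on the log2 scale came next in the strength of the statistic. Further probe sets of CDKG-1 and CDKG-2 did not overlap either, at -0.16 and 0.13 on the log2 scale (adjusted p = 0.99996 for both). The 95% intervals were wide, from -1.002 to 2.20 for MCM2, from -1.38 to 2.98 for CYCB1-1 and from -0.28 to 0.46 for CDKA-1.

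In L6, 0 of 46 genes passed, against 0.0769% of all probe sets, and 1 had an unadjusted p under 0.05 in limma, against 6.67%. The median log2 difference was 0.06, against 0.02 over all 17905 genes, and it ran from -0.08 without WT_L6 replicate 3 to 0.15 without WT_L6 replicate 1. ORC2 had the lowest p and was higher in all OE_L6 arrays than in any WT_L6 array (log2 difference 0.20 ± 0.07, SE, adjusted p = 0.724). On the brightest probe sets, groups did not overlap for 2 genes, against 13.5% of all probe sets. CDKC-1 at 0.18, CDKF-1 at 0.16, CYCD5-1 at 0.35 and CYCA1-4 at 0.12 on the log2 scale followed. Further probe sets of CDKE-1 and CDKG-2 did not overlap either, at -0.91 and 0.15 on the log2 scale (adjusted p = 0.740 and 0.736). The 95% interval ran from -1.37 to 1.84 for MCM2, from -1.91 to 1.42 for CDKB2-1, from -1.22 to 0.53 for CYCD3-1 and from -0.40 to 0.35 for CDKA-1.

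The intervals bound what these arrays can show. The 95% interval extended 0.67 to either side of the difference in the median gene on the log2 scale, from 0.16 to 2.20, the widest for KRP6. In each leaf the interval lay within a 2-fold difference either way for 26 of the 46 genes. For the other 20 the interval reached beyond a 2-fold difference in at least 1 direction. The comparisons of OE with WT in L3 and L6 share no array, but each shares its arrays with a leaf comparison.

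**Figure D5:**
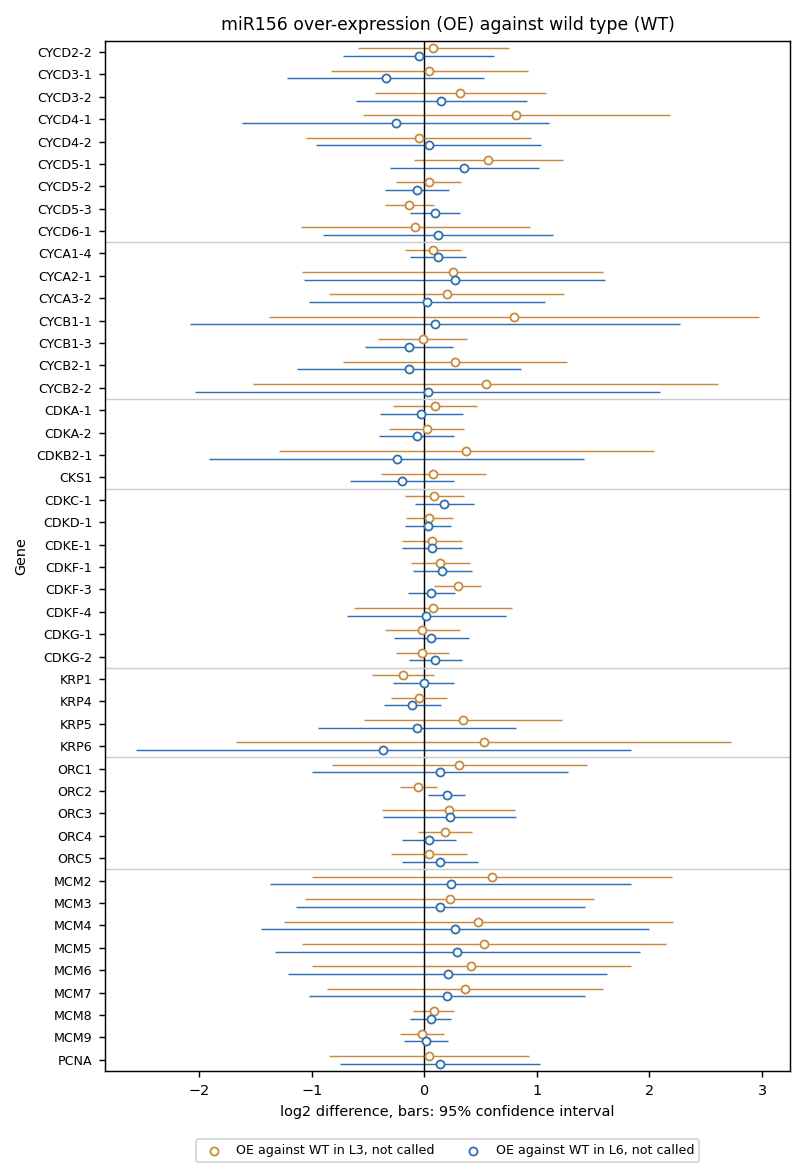
Log2 difference of OE minus WT for each of the 46 genes in L3 and in L6, with 95% confidence intervals (n = 3 arrays a group, limma). No gene passed the threshold in either leaf, and the intervals are widest for the genes that split the L3 arrays, such as KRP6.

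The leaf difference itself was tested for a change with over-expression, as the leaf difference in OE minus that in WT. Of the 46 genes 0 passed, against 0.0122% of all probe sets, and 1, ORC2, had an unadjusted p under 0.05 in limma, against 2.98%. ORC2 gave 0.25 ± 0.11 on the log2 scale (SE, adjusted p = 0.9998). CYCD4-1 gave -1.07 on the log2 scale (95% interval -3.002 to 0.86, adjusted p = 0.9998). CDKF-3 at -0.23, CYCD5-3 at 0.23 and KRP1 at 0.19 followed. The median over the 46 genes was -0.11, against -0.01 over all 17905 genes, and ran from -0.36 without WT_L3 replicate 1 to 0.06 without WT_L3 replicate 3. No difference between the genotypes in the leaf effect was thus shown for any of the 46 genes, and that includes those called in WT and not in OE.

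Genes of the same pathway outside the naming rule were counted from lists. Of 16 genes of the replication fork and DNA synthesis, 3 rose from L3 to L6 in WT and 2 in OE. These are 18.8% and 12.5% of the list, near the 15.6% and 11.9% of all probe sets and under the 22.4% and 17.2% of all genes that rose. The median log2 differences of the list were 0.16 and 0.24, against -0.02 over all 17905 genes in each genotype. RPA32 read 353, 22.5 and 32.6 in WT_L3, 622, 670.3 and 481 in WT_L6, 186, 239.9 and 27.1 in OE_L3 and 493, 643 and 485 in OE_L6. RPA32, a subunit of the protein that coats single-stranded DNA, rose in WT (log2 difference 2.77 ± 0.80, SE, adjusted p = 0.0232). POLD2, a subunit of DNA polymerase delta, rose in both, by 0.81 and 0.65 on the log2 scale (adjusted p = 0.0172 and 0.04603). FEN1A, a flap endonuclease of replication, rose in WT (adjusted p = 0.0202) and FEN1B in OE (adjusted p = 0.04696). The clamp loader genes RFC1 to RFC5 passed in neither.

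Of 3 genes of mitosis, 2 rose in WT and 0 in OE, against 22.4% and 17.2% of all genes. CENH3, the histone of the centromere, rose in WT by 1.15 and NACK, a kinesin of cytokinesis, by 1.74 on the log2 scale (adjusted p = 0.0249 and 0.0389). Of 4 regulators of E2F and the cyclin kinases, 1 rose in WT and 0 in OE. In WT this is 25% of the list, near the 22.4% of all genes. RBR1 read 64.6, 11.6 and 13.6 in WT_L3, 136, 132 and 67.3 in WT_L6, 63.9, 50.99 and 15.4 in OE_L3 and 110.5, 136 and 90.97 in OE_L6. RBR1, a retinoblastoma-related gene, rose in WT (log2 difference 1.61 ± 0.44, SE, adjusted p = 0.0176) and gave 1.21 ± 0.44 on the log2 scale (SE, adjusted p = 0.0623) in OE. Of 9 cyclins of other classes, 3 rose and 1 fell in WT, and 1 rose in OE. The shares that rose are 33.3% and 11.1%, against 22.4% and 17.2% of all genes. The difference was negative for 6 of the 9 in each genotype, with medians of -0.04 and -0.03 on the log2 scale. The P-type cyclins CYCP2-1, CYCP3-1 and CYCP4-1 rose in WT by 2.21, 1.20 and 2.37 on the log2 scale (adjusted p = 0.0206, 0.00898 and 0.0438). CYCH-1, the partner of CDKD-1, fell in WT by 1.33-fold (adjusted p = 0.0161).

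Growth-regulating factors, transcription factors that promote division in growing leaves, rose for 5 of 10 genes in WT and 1 of 10 in OE. The shares are 50% and 10%, against 22.4% and 17.2% of all genes, and the median log2 differences were 0.74 and 0.52. GRF12 read 57.6, 44.5 and 39.4 in WT_L3, 72.8, 83.6 and 62.7 in WT_L6, 43.6, 45.3 and 47.004 in OE_L3 and 58.3, 58.03 and 55.8 in OE_L6. GRF12 rose in WT (log2 difference 0.50 ± 0.11, SE, adjusted p = 0.00587), with no overlap of its groups, and gave 0.26 ± 0.11 on the log2 scale (SE, adjusted p = 0.0958) in OE. GRF2 read 124, 92.8 and 92.7 in WT_L3, 241, 218 and 124 in WT_L6, 127, 115 and 95.4 in OE_L3 and 163, 207 and 169.8 in OE_L6. GRF2, which the gene table also lists as GRF4, rose in WT (log2 difference 0.78 ± 0.21, SE, adjusted p = 0.0164) and gave 0.61 ± 0.21 on the log2 scale (SE, adjusted p = 0.05204) in OE. The gene that rose in OE was GRF3 (LOC4336879), by 1.39 ± 0.44 on the log2 scale (SE, adjusted p = 0.0385).

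Markers of other leaf states were read beside these genes. Of 4 genes of senescing leaves, 2 fell from L3 to L6 in both genotypes, against 26.8% and 25.4% of all genes. The median log2 difference of the 4 was -0.80 in WT and -0.70 in OE. NOL went the other way, averaging 533 in WT_L3, 725 in WT_L6, 536 in OE_L3 and 702 in OE_L6. It did not overlap in either genotype, but neither NOL nor NYC1 passed. SGR read 248, 252 and 236 in WT_L3, 102, 101 and 65.9 in WT_L6, 238, 203 and 296 in OE_L3 and 94.6, 111 and 98.5 in OE_L6. RCCR1 read 1299.9, 1546 and 1536 in WT_L3, 488, 415 and 446 in WT_L6, 1490.4, 1337 and 1602 in OE_L3 and 439, 401 and 632 in OE_L6. SGR and RCCR1, genes of chlorophyll breakdown, were higher on all L3 arrays than on any L6 array, and WT_L3 replicate 1, where the cyclins and MCM genes were high, was the lowest of its group in RCCR1 but lay between the others in SGR. Of 4 leaf blade markers, 2 rose in each genotype, against 22.4% and 17.2% of all genes. CAB2R went the other way, lower on all L6 arrays than on any L3 array, and did not pass. Of 5 class I KNOX genes of the shoot meristem, 1, OSH43, rose in each. That is 20% of the list, near the 22.4% and 17.2% of all genes. The meristem marker OSH1 read 18.1 to 25.2 and OSH6 18.9 to 32.1 on all arrays. The part of leaf state in the results was not tested.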

How the data were processed

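Total RNA of 12 leaf samples had been labelled with biotin and hybridised, per the labels' protocols. The table the authors deposited gives, for each of 57381 probe sets, a linear intensity on every array. Not given in the sources used here were the scanner, the summarization and the scaling. No normalization was added. If the deposited values had been scaled to a common level, a change of all transcripts at once would not show. The number of arrays limits the precision.

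The groups come from the sample titles. The 187 control probe sets were left out, and log2(signal + 16) of the other 57194 was fitted in R 4.3.3 with limma 3.58.1 (lmFit, eBayes with a trend), with 1 mean per group and 8 residual degrees of freedom. All tests were two-sided, p-values were adjusted by Benjamini and Hochberg over all 57194 probe sets, and the threshold was 0.05. The log2 scale with 16 added understates the change of dim genes. Signals of different probe sets are not comparable as levels. Figures used matplotlib 3.10.9 and tables pandas 2.3.3, both under Python 3.11.15, and the fit was tested on simulated data.

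Genes were named through the platform annotation, in which 22436 probe sets carry 1 gene, 95 carry several and 34663 are unlisted, and through NCBI's gene table (assembly ASM3414082v1). The members and lists were chosen with earlier results of these data known. After their values were seen, 2 genes caught by a list through a similar name were dropped: rFCA from the replication list and the invertase gene GIF1 (CIN2) from that of growth-regulating factors. All members are named: values in every array are given for each member called in a leaf comparison and for those with the lowest p between genotypes. Promoters were not analysed here.

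By the labels, both leaves of a replicate number come from 1 plant or line, and this is the source of the pairing. As a check, the 2 leaves' deviations from their group means correlated at -0.211, -0.302 and -0.0366 in WT and 0.0993, 0.127 and 0.171 in OE over all probe sets. Alternatives were another normalization, other pseudocounts, filters on dim probe sets, no trend, array weights, the plant as a fixed block (for OE against WT, the replicate number) or a random block, fewer groups or probe sets in the fit, the mean of a gene's probe sets, and each array left out.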

Additional observations from a re-analysis of the deposited data

How the results depend on the processing

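Of the single genes named with a call, 0 changed direction in any alternative. CYCD3-1, ORC4 and CDKF-1 kept their call in WT, and ORC2, ORC4 and CDKF-1 in OE, in all 25 alternatives run. Over the genotype comparisons and the interaction, 0 of the 46 genes passed in any of them. With only the compared groups in the fit, 7 genes rose and 2 fell in WT, 24 rose in OE, and 21 probe sets were called between genotypes in L3. The replicate block gave 22 genes higher and 2 lower in OE and 0 probe sets in the interaction, and beyond the calls given above it changed no other call of these genes. Genes that rose in OE numbered 14 with quantile normalization, 15 with a pseudocount of 64, 16 with array weights and 14 with 1 probe set per gene. Apart from the fit with 1 probe set per gene, the leaf calls over all probe sets under these fits are not given here. The mean of a gene's probe sets left 3 genes lower in WT, where CDKA-2 and CDKG-2 lost their calls, and KRP4 and CDKG-1 lost theirs in both genotypes.

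Over all probe sets, 1 per gene left 9696 called in WT leaves, 8604 in OE leaves, 10 and 8 between genotypes in L3 and L6, and 1 in the interaction, since fewer were tested. Array weights called 121 in L3, 100 in L6 and 12 in the interaction. The 40th percentile filter called 41 in L3 and 3 in the interaction, and the 60th percentile filter 25, 22 and 2 in L3, L6 and the interaction. A pseudocount of 1 called 0 in the interaction. Leaving out WT_L3 replicate 1 and OE_L6 replicate 1 together, chosen after seeing the data, gave 22 genes higher in OE and 2 probe sets in the interaction. The causes were not tested.

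With each array left out in turn, 3 to 30 genes rose and 2 to 6 fell in WT, and 3 to 29 rose and 1 to 5 fell in OE. Probe sets called ran from 10521 to 20969 in WT leaves, from 8982 to 18266 in OE leaves, from 40 to 75 in L3, from 30 to 60 in L6 and from 0 to 8 in the interaction. The spread among the L3 arrays and the 3 arrays a group limit the detection of small changes.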
